A study of Mus musculus with 16 samples.

Results

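The lipid-associated macrophage program was followed through 10 of the 40324 gene symbols in the count table: Trem2, Gpnmb, Cd9, Cd63, Lgals3, Spp1, Capg, Lpl, Fabp5 and Atp6v0d2. They were taken by symbol alone, and all 10 passed the filter on low counts and were tested among 14476 genes. The samples were whole livers of db/db mice, whose leptin receptor is mutated and which grow obese and diabetic. In 8 mice the adeno-associated virus AAV8 carried GFP (the controls), and in 8 mice it carried arcA, the name in bacteria of an arginine deiminase gene, although the labels do not say what it encodes here. Mice of both groups carried the db/db background, were littermates given virus at about 5 weeks of age, and were 10 weeks old at sampling, 5 weeks after injection. The promoter driving each transgene, the sex of the mice and any pooling of animals are not stated in the labels, and transgene RNA was not analysed here.

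Lipid-associated macrophages gather in obese adipose tissue and in fatty, injured liver, where they surround dying, lipid-filled cells. They take up lipid through surface receptors such as TREM2, break it down in lysosomes, and secrete proteins that act on matrix and neighbouring cells. Their marker set therefore spans receptors, tetraspanins, secreted proteins, lipid enzymes and a lysosomal proton pump subunit, several of which other liver cells also make.

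The 10 genes did not move as a block in whole-liver RNA. In arcA livers 6 of the 10 genes were lower (Gpnmb, Trem2, Lgals3, Capg, Lpl and Cd63), by 2.6-fold to 6.71-fold, and 0 were higher. In the same test 6.57% of all genes tested were lower and 4.27% higher, or 10.8% in either direction. The count of higher members was 0 by edgeR, DESeq2 and limma voom, and 1 (Atp6v0d2) at an unadjusted p under 0.05 by edgeR. For each of these 6 genes every arcA liver lay below every GFP liver, an arrangement found for 1.2% of all genes tested. The other 4 genes (Cd9, Spp1, Fabp5 and Atp6v0d2) did not pass the test, and their groups overlapped. The median log2 fold change, arcA over GFP, was -1.50 over the 10 genes and 0.00915 over all genes tested. RNA of whole liver cannot tell fewer macrophages from less of a transcript per macrophage.

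Levels below are counts relative to library size (CPM), with library sizes scaled by TMM, a method that corrects for a few abundant transcripts. Total counts were 28912563 to 53520828 in GFP and 37325610 to 45874797 in arcA libraries. TMM scaling gave 618 higher and 951 lower genes, so that 39.4% of calls were rises, and scaling by total counts gave 253 and 800 (24%). Scaling on hepatocyte marker genes gave 55 and 2378 (2.26% rises, with a median over all genes of -0.184). Gm42418, a locus that collects ribosomal RNA reads, held 11.8%, 18.1% and 19.4% of the counts of GFP 2, 3 and 5 and at most 7.37% in other libraries. Without these 3 libraries the same number of members, 6, was lower. A further fit left out arcA 3 and arcA 8. In these the hepatocyte marker Hpx stood at 8946 and 11380 CPM, against at most 4126 in the other libraries. Liver identity was plain: albumin (Alb) stood at 60760 ± 3594 CPM in GFP and 68710 ± 8056 CPM in arcA livers (SD, n = 8 each).

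Per kilobase of exon, the members spanned a wide range of levels in GFP livers. Spp1 was highest, at 10.1 ± 2.14 RPKM (CPM divided by exon length in kilobases; SD, n = 8), followed by Lgals3 (5.37), Lpl (3.46), Cd9 (2.94), Cd63 (1.86), Atp6v0d2 (1.69), Capg (1.56), Fabp5 (0.762), Gpnmb (0.306) and Trem2 (0.23 ± 0.059). The ranges of neighbours in this order overlapped, except those of Capg and Fabp5. In arcA livers the order was Spp1 (12.2 RPKM), Atp6v0d2 (2.53), Cd9 (2.29), Lgals3 (1.35), Lpl (1.13), Fabp5 (0.902), Cd63 (0.715), Capg (0.492), Gpnmb (0.0453) and Trem2 (0.045). Here neighbours overlapped except Spp1 with Atp6v0d2 and Capg with Gpnmb. Gpnmb and Trem2 were thus the scarcest members in both groups. The order depends on exon length: by mean CPM alone, Lpl (36.26) stood above Spp1 (16.65) in GFP livers.

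**Figure D1:**
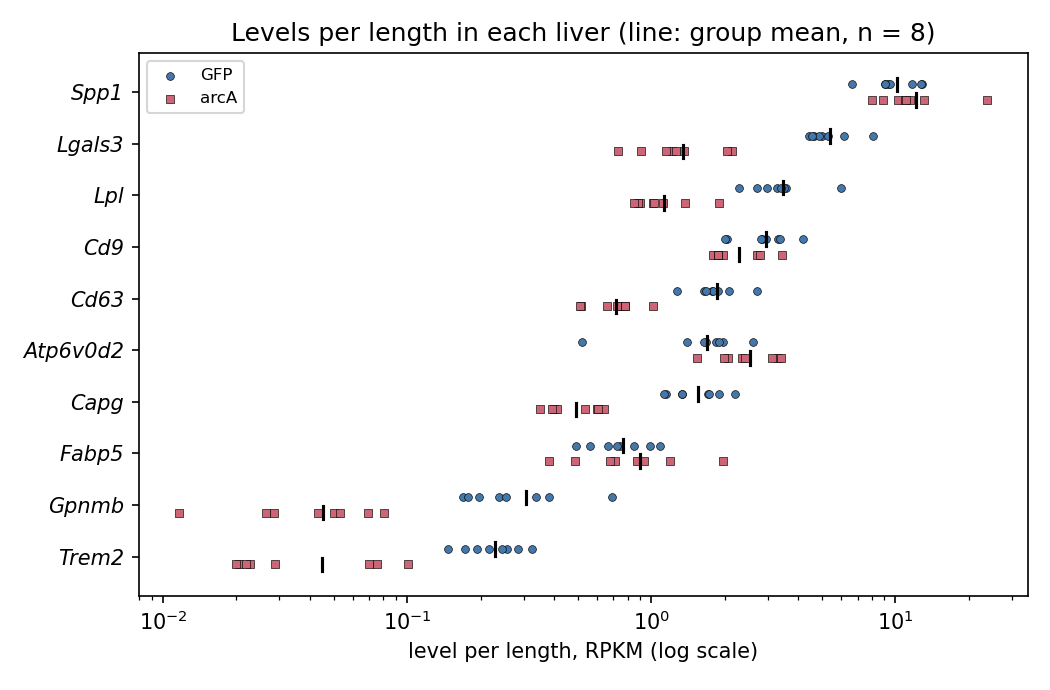
Level per length of each member in each liver, in RPKM on a log axis, with circles for 8 GFP and squares for 8 arcA livers and a line at each group mean. Spp1 is highest in both groups, and Gpnmb and Trem2 are lowest, at 0.306 and 0.23 RPKM in GFP and 0.0453 and 0.045 RPKM in arcA livers.

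Trem2 (ENSMUSG00000023992.14; GRCm38, chromosome 17, 48346401 to 48354147) encodes a lipid-sensing receptor that is needed for the lipid-associated state of macrophages. Its values ran from 0.726 CPM through a median of 1.14 to 1.6 in GFP livers, and from 0.0985 through 0.127 to 0.497 in arcA livers. All arcA livers were therefore below all GFP livers, and arcA 4, 7 and 8 stood above the other arcA livers. The gene fell by 2.31 on the log2 scale (SE 0.323, edgeR adjusted p = 0.000151, lower in 8 of 8 arcA livers than the GFP median). Counts behind these values were small, 24 to 96 per GFP library and 4 to 22 per arcA library.

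Gpnmb (ENSMUSG00000029816.10; chromosome 6, 49036546 to 49070929) encodes a transmembrane glycoprotein of lipid-loaded and lysosome-stressed macrophages. GFP livers held 1.11 to 4.5 CPM with a median of 1.6, and arcA livers 0.0758 to 0.522 with a median of 0.304. GFP 7 stood far above the other GFP livers, of which the next had 2.48 CPM, and the groups did not overlap. This was the largest change of the 10, a fall by 2.75 (SE 0.348, edgeR adjusted p = 6.28e-05, 8 of 8 livers). Without GFP 7 the log2 fold change was -2.45 and the call held.

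The promoters of Trem2 and Gpnmb, and that of Spp1 as the member with the highest level per kilobase of exon, are shown because some members moved and others did not. Of the 10 members, 7 had promoter windows in RefSeq (GRCm38.p6), 8 windows in all, each of 250 bases before and 50 after a start. Each line gives the 120 bases before the start on the plus strand, at chr17:48346281-48346400 (Trem2), chr6:49036398-49036517 (Gpnmb) and chr5:104434991-104435110 (Spp1), with matches to the motifs below in capitals.
Trem2: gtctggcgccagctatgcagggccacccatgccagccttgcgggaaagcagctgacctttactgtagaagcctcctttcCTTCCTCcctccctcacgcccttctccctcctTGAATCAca
Gpnmb: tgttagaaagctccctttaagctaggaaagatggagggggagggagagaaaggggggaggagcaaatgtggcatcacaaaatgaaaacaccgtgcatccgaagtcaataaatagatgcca
Spp1: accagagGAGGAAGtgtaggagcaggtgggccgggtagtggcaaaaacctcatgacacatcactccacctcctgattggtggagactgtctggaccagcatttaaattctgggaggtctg
The motifs below were searched on both strands of whole windows. GAGGAAG, which holds the core bound by the myeloid factor PU.1, was in 3 of 8 member windows (Trem2, Spp1 and Cd63) and in 13.6% of 32851 windows of all genes. TGANTCA, a pattern wider than the AP-1 site TGACTCA that it includes, was in 2 of 8 and in 7.81% of all. Gpnmb matched as TGACTCA, past its start, and Trem2 as TGAATCA, which is not that site. The MiT/TFE sites CACGTG and TCATGTG were in 0 of 8 member windows, against 7.15% and 3.77% of all. A GAGGAAG match was thus present in a member that fell, Trem2, and in one that did not pass, Spp1. No match overlapped another, and a match is a description of the letters only.

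Among genes of TREM2 signalling and shedding, 8 of 14 tested fell and 0 rose with edgeR (0 higher also by DESeq2, limma voom and at an unadjusted p under 0.05), at a median log2 fold change of -0.977. Tyrobp, the adaptor that carries the TREM2 signal, had 11.4 ± 2.6 CPM in GFP and 5.79 ± 1.91 CPM in arcA livers (SD, n = 8 each), and fell by 0.98 (SE 0.186, edgeR adjusted p = 0.00286). The kinase gene Syk fell by 0.98 and the lipid phosphatase gene Inpp5d by 1.01. Ms4a6d, of a family whose members modulate TREM2, fell by 1.55. The sheddase genes Adam10 and Adam17, which cut TREM2 from the surface, had log2 fold changes of -0.05 and 0.0017 (edgeR adjusted p = 0.702 and 0.992). Without any 1 library, 6 to 9 of these genes were lower. Of 5 other TREM family receptors only Treml4 was tested (-0.65, edgeR adjusted p = 0.0738); it was lower by DESeq2 and limma voom.

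Cd9 and Cd63 encode tetraspanins, membrane organisers of the cell surface and of late endosomes, respectively. Cd63 (ENSMUSG00000025351.14; chromosome 10, 128900989 to 128912822) ran from 4.71 CPM through 6.57 to 10 in GFP livers and from 1.89 through 2.68 to 3.75 in arcA livers, with no overlap. It fell by 1.38 (SE 0.15, edgeR adjusted p = 9.91e-06, 8 of 8 livers). Cd9 (ENSMUSG00000030342.8; chromosome 6, 125460266 to 125494791) ran from 4.08 through 5.94 to 8.52 CPM in GFP livers and from 3.66 through 3.92 to 7.02 in arcA livers. Of the arcA livers, 5 lay below the lowest GFP liver, while arcA 3, 6 and 8 lay within the GFP range.

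The Cd9 log2 fold change was -0.36 (SE 0.164, edgeR adjusted p = 0.17, below the GFP median in 7 of 8 livers). Cd9 passed with scaling on hepatocyte markers (-0.59, adjusted p = 0.015) and without arcA 3 and 8 (-0.55, adjusted p = 0.0247), and turned to 0.39 with scaling on pan-macrophage genes. The antisense transcript Gm28809, which overlaps Cd9, held 32 counts over all libraries, and the pseudogenes Cd9-ps and Cd63-ps held 9 and 151. Of 21 other tetraspanins, 2 fell and 2 rose, at a median of -0.0259. The leukocyte tetraspanin genes Cd53 and Cd37 fell by 1.08 and 1.05, while Tspan33 rose by 0.62 and Tspan14 by 0.22. The rise of Tspan14 lost its call when total counts or hepatocyte markers set the scaling, without GFP 2, 3 and 5, and without arcA 3 and 8. Cd81, which most cells express, had a log2 fold change of 0.03 (edgeR adjusted p = 0.816).

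Lgals3 and Spp1 encode secreted products of these macrophages, galectin-3 and osteopontin. Lgals3 (ENSMUSG00000050335.17; chromosome 14, 47367751 to 47386160) had 8.22 to 15 CPM in GFP livers (median 9.15) and 1.35 to 3.98 in arcA livers (median 2.3). The groups were wide apart, and GFP 7 was again the top value. It fell by 1.99 (SE 0.196, edgeR adjusted p = 7.4e-06, 8 of 8 livers). Of 5 other galectin genes tested, 0 passed, with a median of -0.0614; 1 of the 5 (Lgals1) had an unadjusted p under 0.05, DESeq2 called 1 and limma voom 0. Lgals1, which macrophages and fibroblasts share, had -0.75 (edgeR adjusted p = 0.0925), and Lgals9 had 0.08 (edgeR adjusted p = 0.357).

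Spp1 (ENSMUSG00000029304.14; chromosome 5, 104435118 to 104441050), which bile duct cells also express, showed no such fall. GFP livers held 10.9 to 21.1 CPM (median 15.5) and arcA livers 13.2 to 39.1 (median 18.2). The groups overlapped almost fully, although arcA 8 stood alone at the top. The log2 fold change was 0.28 (SE 0.203, edgeR adjusted p = 0.447, above the GFP median in 6 of 8 livers), and 0.07 without arcA 8. Bile duct markers did not pass with edgeR (0 of 6 tested, also 0 at an unadjusted p under 0.05 and by DESeq2 and limma voom; median -0.0264, summed level 9.49 to 17.1 CPM in GFP and 9.07 to 15.7 in arcA livers), with Krt19 at 0.29 (edgeR adjusted p = 0.716). Among 9 osteopontin receptor genes 3 fell and 1 rose, at a median of -0.167. Cd44, a receptor of leukocytes, fell by 0.998 (SE 0.183, edgeR adjusted p = 0.00182). The integrin genes Itga4 and Itga9 had log2 fold changes of -0.53 and -0.42, and Itga5 of 0.33. Leaving out single libraries ended these calls: for Itga4 GFP 6 (adjusted p = 0.0581), for Itga9 arcA 1 or arcA 5 (up to 0.0543), and for Itga5 10 of the 16 libraries (up to 0.079). The Itga4 call also ended with the replicate block and without GFP 2, 3 and 5, that of Itga9 with total counts as the scaling, and that of Itga5 with upper-quartile or hepatocyte scaling, the 1 CPM filter, and without arcA 3 and 8.

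Capg (ENSMUSG00000056737.14; chromosome 6, 72544391 to 72562983) encodes a protein that caps actin filaments in macrophages. Its values were 2.85 to 5.57 CPM in GFP livers (median 3.84) and 0.887 to 1.61 in arcA livers (median 1.2). The groups were well apart, with a similar relative spread in both (SD 24.5% of the mean in GFP and 23.4% in arcA livers). Capg fell by 1.67 (SE 0.169, edgeR adjusted p = 4.67e-06, 8 of 8 livers), the smallest p of the 10 genes. Of 6 other genes tested of the gelsolin family and actin capping, 0 passed with edgeR, DESeq2 or limma voom, and 1 had an unadjusted p under 0.05 in edgeR, Capza2 (-0.10). Gsn (gelsolin) had 0.17 (edgeR adjusted p = 0.727).

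Lpl and Fabp5 handle lipid. Lpl (ENSMUSG00000015568.16; chromosome 8, 68880491 to 68907448) encodes lipoprotein lipase, which frees fatty acids from triglyceride in lipoproteins. It ran from 24 CPM through 35.1 to 62.5 in GFP livers and from 8.88 through 10.7 to 19.8 in arcA livers. GFP 7 was high, arcA 1 came nearest to the GFP group, and the groups did not overlap. Lpl fell by 1.62 (SE 0.204, edgeR adjusted p = 0.000198, 8 of 8 livers), and its log2 fold change was -1.46 without GFP 7. Of 15 partners of LPL and other lipases, 1 fell and 0 rose with edgeR (median 0.127). At an unadjusted p under 0.05 3 were higher, and DESeq2 and limma voom each called 1 higher, Sel1l and Lmf1 respectively. The 1 gene lower with edgeR was Apoc2, the cofactor of LPL, which fell by 0.38 (SE 0.0879, edgeR adjusted p = 0.00841). The Apoc2 call was lost with surrogate variables. Gpihbp1, which anchors LPL to capillaries, had -0.29 (edgeR adjusted p = 0.0827) and Lipc, the hepatic lipase gene, 0.17 (edgeR adjusted p = 0.415).

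Adipocytes and muscle also express Lpl, and their part in its level was not tested. Summed over 8 livers, Adipoq had 10 counts in GFP and 25 in arcA, Plin1 had 4 and 2, and Lep had 4 and 1. Of the adipocyte list 2 genes were tested and 1 rose, Retn (1.68), and the summed level was 0.291 to 1.57 CPM in GFP and 0.951 to 2.1 in arcA livers. Muscle had 1 tested marker, Mylpf (-0.07, edgeR adjusted p = 0.878), and a summed level of 1.08 to 1.61 CPM in GFP and 0.711 to 1.09 in arcA livers, with Myh4 at 0.

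Fabp5 (ENSMUSG00000027533.10; chromosome 3, 10012548 to 10016607), a fatty acid carrier found in macrophages and in other cells, had 1.76 to 3.87 CPM in GFP livers (median 2.61) and 1.36 to 7 in arcA livers (median 2.83). The arcA range enclosed the GFP range, with arcA 6 highest and arcA 5 lowest. The log2 fold change was 0.23 (SE 0.273, edgeR adjusted p = 0.66, above the GFP median in 4 of 8 livers); its sign turned without arcA 6 (-0.04), with limma voom (-0.05) and with hepatocyte scaling (-0.00396). Fabp5 has processed copies in the genome; Fabp5l2 held 4 counts, and the split of reads among copies is uncertain. Of 4 other fatty acid binding protein genes tested, 1 fell, Fabp7 (-0.66), whose call ended when any 1 of 8 libraries (GFP 3, 5, 6 or 7, arcA 2, 3, 5 or 7) was left out (adjusted p up to 0.0896), and also with surrogate variables, the replicate block, without GFP 2, 3 and 5 and without arcA 3 and 8. Fabp4 had -0.23 (edgeR adjusted p = 0.228), and Fabp1, the main carrier of hepatocytes, -0.16 (edgeR adjusted p = 0.471).

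Atp6v0d2 (ENSMUSG00000028238.6; chromosome 4, 19876841 to 19922605) encodes the form of a V-ATPase subunit found in osteoclasts and activated macrophages; the pump acidifies lysosomes. It was the member with the most positive change. GFP livers ran from 1.41 CPM through 4.76 to 7.06, and arcA livers from 4.2 through 6.5 to 9.26. GFP 1 lay far under the other GFP livers, of which the next had 3.79 CPM. The log2 fold change was 0.58 (SE 0.238, edgeR adjusted p = 0.138, above the GFP median in 7 of 8 livers), 0.44 without GFP 1 and 0.70 without GFP 7. Atp6v0d2 passed only with surrogate variables (0.85, adjusted p = 0.000515) and with scaling on pan-macrophage genes, among the 31 alternatives run.

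The other pump subunits stayed mostly short of the threshold. Of 17 tested, 1 passed, Atp6v1e1 (-0.16, edgeR adjusted p = 0.0197), at a median of -0.0447, and that call was lost when total counts set the scaling, with no filter, and without arcA 3 and 8. Atp6v0d1, the form of the same subunit found in all cells, stood at 71.5 ± 3.64 CPM in GFP and 69.4 ± 2.94 CPM in arcA livers (SD, n = 8 each; log2 fold change -0.05, edgeR adjusted p = 0.566). The MiT/TFE factors, which switch on lysosomal genes and, in macrophages, Gpnmb and Atp6v0d2, had 0 of 4 genes past the test with edgeR, 1 with DESeq2 and 0 with limma voom. Tfec had -0.63 (edgeR adjusted p = 0.0604) and Mitf -0.24 (edgeR adjusted p = 0.175); both had an unadjusted p under 0.05. Osteoclast markers had 1 of 5 tested genes lower, Tnfrsf11a (-1.12, edgeR adjusted p = 0.0103), and Calcr and Dcstamp held 4 and 27 counts in all GFP livers.

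**Figure D2:**
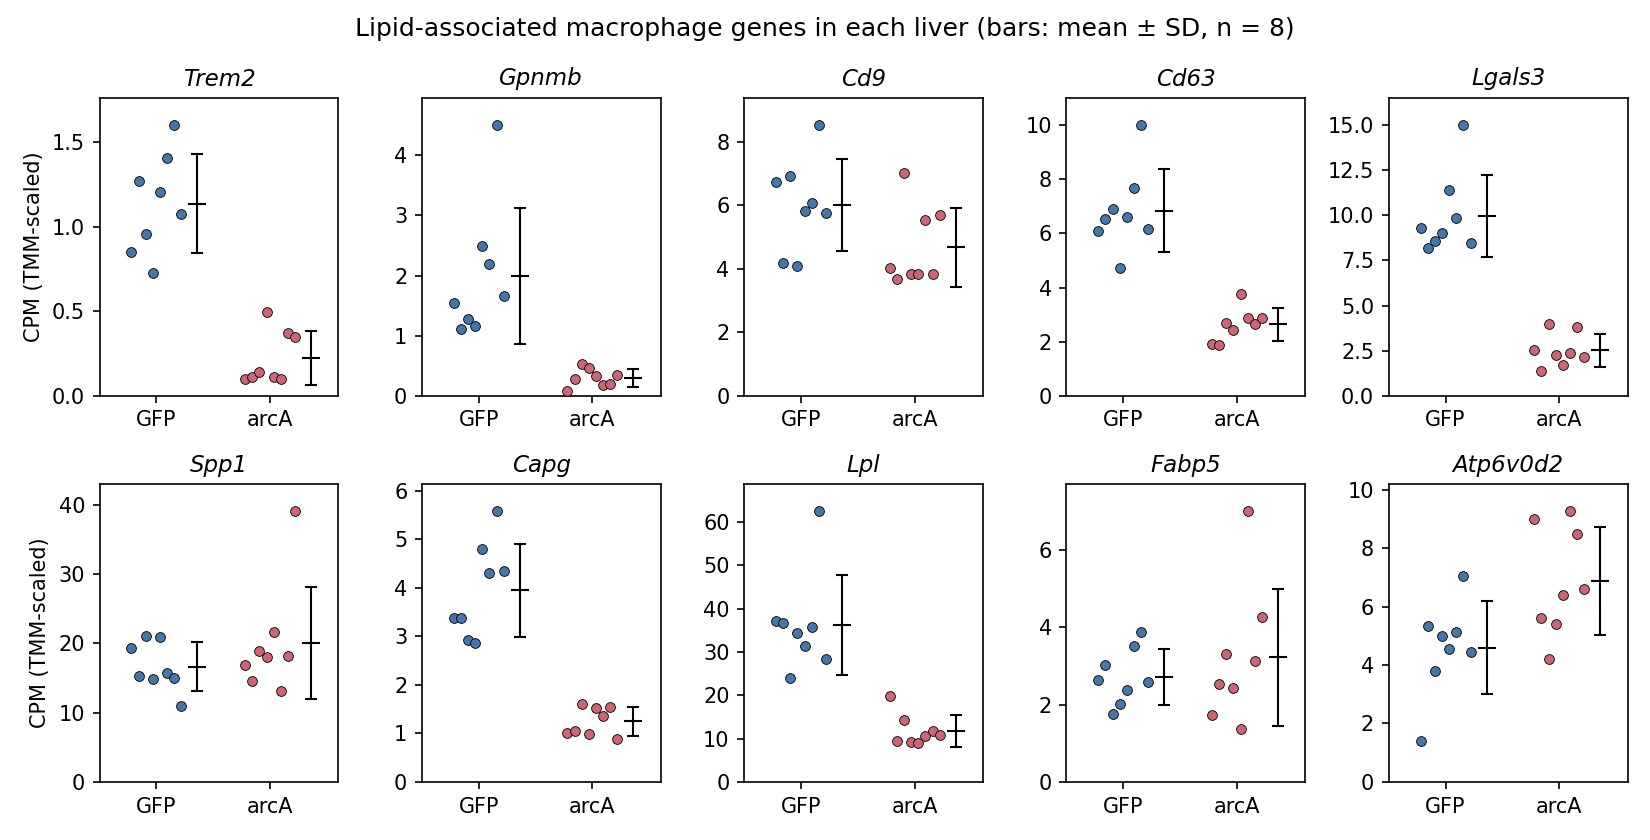
CPM of each member in each liver (1 point per liver), with the mean and SD of 8 livers beside each group and an axis from 0. For Trem2, Gpnmb, Cd63, Lgals3, Capg and Lpl the arcA points lie below all GFP points, while those of Cd9, Spp1, Fabp5 and Atp6v0d2 overlap.

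Other genes reported for lipid-associated macrophages were also divided. Of 20 tested, 6 fell and 0 rose with edgeR, at a median of -0.184. DESeq2 and limma voom also called 0 higher, 2 were higher at an unadjusted p under 0.05, and Cd36, a fatty acid receptor, was called higher with surrogate variables, without arcA 3, and without arcA 3 and 8. Mmp12, a macrophage elastase, had 4.19 ± 2.67 CPM in GFP and 0.19 ± 0.164 CPM in arcA livers (SD, n = 8 each), and fell by 4.46 (SE 0.506, edgeR adjusted p = 5.81e-05). Clec7a, a receptor for fungal glucans, fell by 2.72 and Itgax, the CD11c integrin, by 2.31. Axl, a receptor for dying cells, had 17.9 ± 2.78 and 8.97 ± 3 CPM (SD, n = 8 each; SE 0.167, edgeR adjusted p = 0.00123) and fell as well. The genes of this list that did not pass included the lysosomal genes Lipa (0.02), Ctsb (0.15), Ctsl (0.08) and Ctsd (-0.04). Apoe (0.14), which hepatocytes also express at high levels, did not pass either. Apoe alone stood at 20370 ± 531 CPM in GFP livers.

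**Figure D3:**
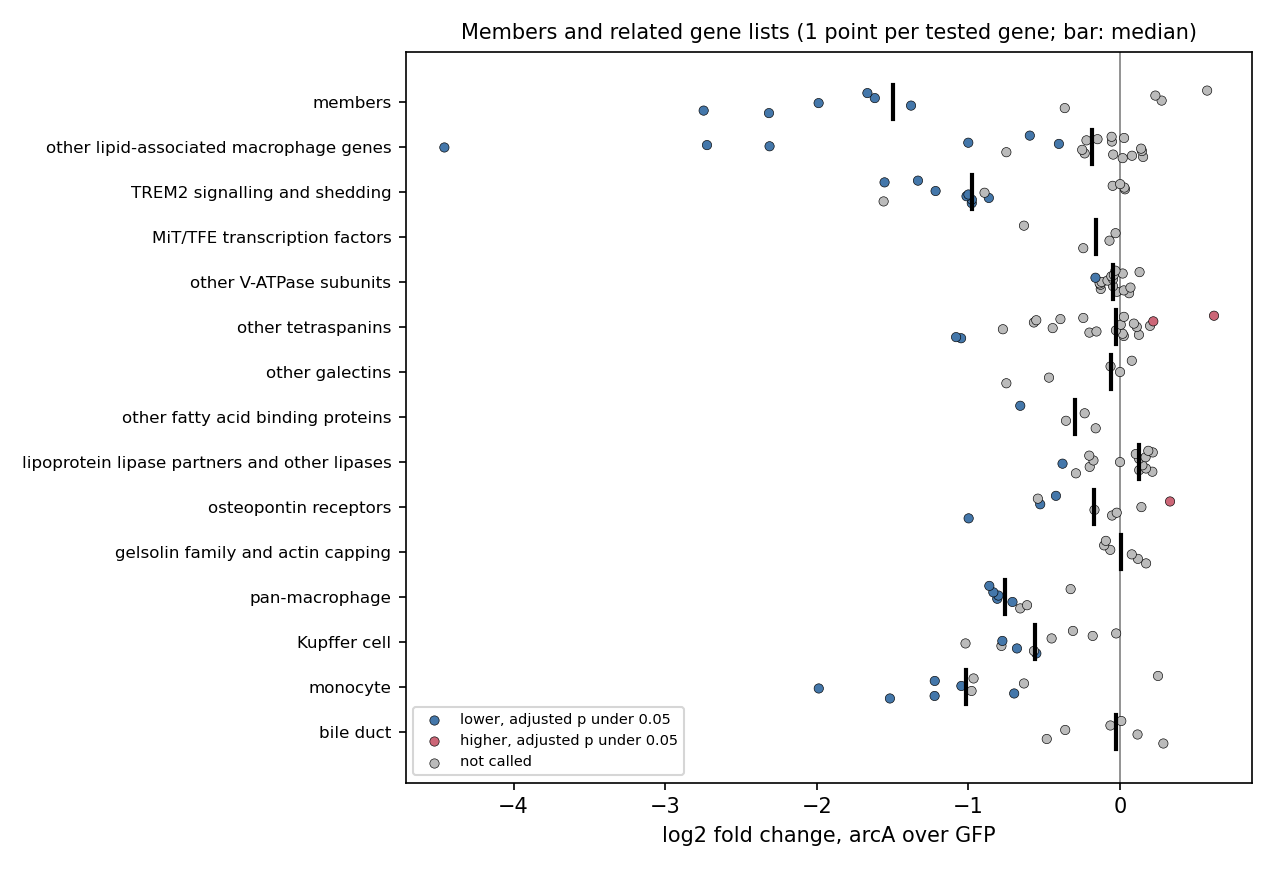
Log2 fold change (arcA over GFP) of each tested gene in the members and in 14 related lists, with 1 point per gene, blue or red where the adjusted p was under 0.05, and a bar at the median. The medians are -1.50 for the members, -0.977 for TREM2 signalling and -0.755 for pan-macrophage markers, and lie near 0 for V-ATPase subunits, tetraspanins and galectins.

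Some markers of macrophages at large were lower too. Of 8 pan-macrophage genes 5 fell and 3 (Adgre1, Csf1r and Mpeg1) did not pass, at a median of -0.755, and their summed level was 218 to 342 CPM in GFP and 109 to 334 in arcA livers. Cd68, a lysosomal glycoprotein of macrophages, fell by 0.83 (SE 0.225, edgeR adjusted p = 0.0246); the p rose to 0.0522 without GFP 7, and the call also ended without GFP 2, 3 and 5 and with no filter. Of 10 Kupffer cell genes, which mark resident liver macrophages, 3 fell and 7 did not pass, at a median of -0.559, with a summed level of 238 to 376 CPM in GFP and 149 to 326 in arcA livers. Clec4f, a Kupffer cell lectin, fell by 0.55 (SE 0.15, edgeR adjusted p = 0.0271), a call that ended without GFP 7 (adjusted p = 0.0599), without GFP 2, 3 and 5, with total counts as the scaling, with no filter and with the replicate block. Without GFP 7, 3 pan-macrophage and 1 Kupffer cell gene were lower, and without arcA 3 there were 7 and 6. Of 10 monocyte genes 6 fell, at a median of -1.01; S100a4 fell by 1.99 and Plac8 by 0.70, and the summed level, mostly Fn1 of hepatocytes, was 940 to 1280 and 1080 to 1590 CPM.

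To set the members against macrophage RNA of the same liver, the fit was repeated with libraries scaled on the 8 pan-macrophage genes. This scaling shifted the median over all genes to 0.836, and 1.02% of genes tested were lower and 82.3% higher. The same count of members, 6, remained lower: Gpnmb at -1.92 (SE 0.33, edgeR adjusted p = 7.72e-07), Trem2 at -1.50 (adjusted p = 0.000128), Lgals3 at -1.23, Capg at -0.82, Lpl at -0.78 and Cd63 at -0.52 (adjusted p = 0.0338). Cd63 missed the threshold when any 1 of GFP 2, 3, 6 and 7 and arcA 1, 2, 6 and 8 was left out (adjusted p up to 0.0715), and the other 5 passed in all 16 such fits. The members higher relative to macrophage genes, as most genes were, numbered 3: Atp6v0d2 at 1.44, Spp1 at 1.07 and Fabp5 at 0.96. Cd9 stood at 0.39 (adjusted p = 0.101). Scaling on the 10 Kupffer cell genes gave 6 lower members as well, with Gpnmb at -2.03 and Trem2 at -1.61. The same 3 members were higher under it: Atp6v0d2 at 1.325, Spp1 at 0.98 and Fabp5 at 0.86. The shares of all genes lower and higher under this scaling are not given here, so these counts have no background beside them. Among the related genes, Mmp12 (-3.53), Clec7a (-1.97), Itgax (-1.59) and Ms4a6d (-0.85) were also lower under pan-macrophage scaling, and Tyrobp, Syk and Axl were not. Hcst, of the TREM2 signalling list, was lower there too (-0.95, edgeR adjusted p = 0.0212). It was not called under TMM scaling (edgeR adjusted p = 0.0505). With pan-macrophage scaling Marco (-0.64) of the Kupffer cell list was lower too, while Cd163, Slc40a1 and Id3 were higher. Of the monocyte list S100a4 (-1.27) and Ly6c2 (-0.76) were lower and Fn1 was higher.

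**Figure D4:**
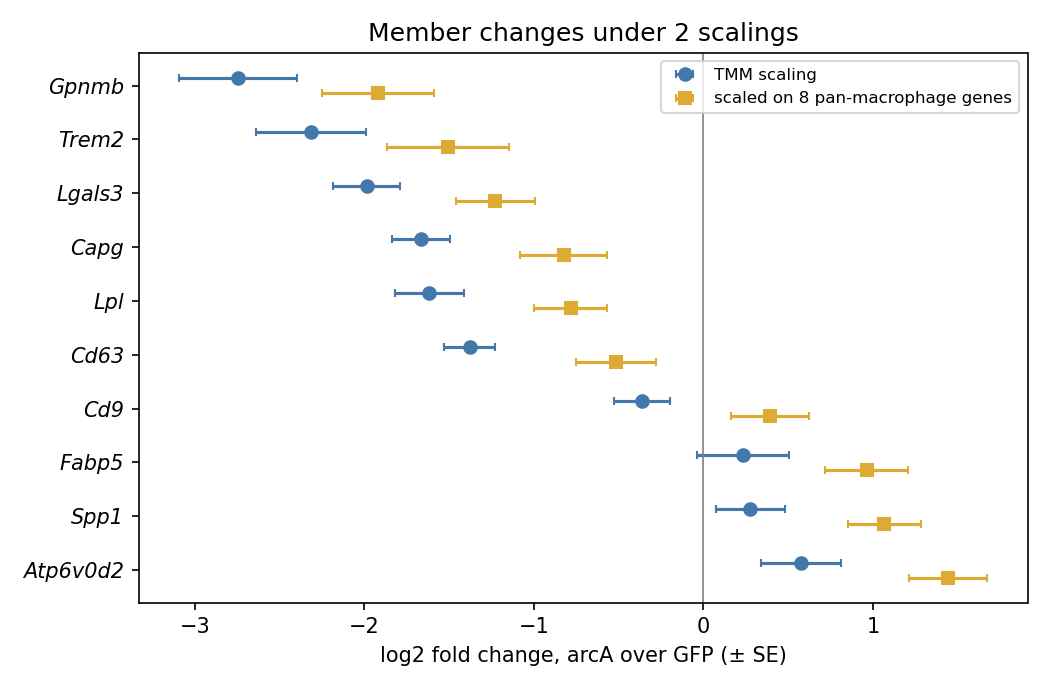
Log2 fold change (arcA over GFP, bars ± SE) of each member with TMM scaling (circles) and with libraries scaled on 8 pan-macrophage genes (squares). Every member sits further to the right under the second scaling, from -1.92 for Gpnmb to 1.44 for Atp6v0d2, and 6 members stay below 0.

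Markers of other cells moved in the same livers, and their part in the member changes was not tested beyond the scalings given. All 6 tested T cell genes fell (median -3.27, summed level 6.09 to 12.6 CPM in GFP and 0.619 to 1.73 in arcA livers), as did all 5 tested B and plasma cell genes (median -3.17, 53.6 to 305 and 2.37 to 4.01 CPM). Of 10 stellate cell genes 6 fell (median -0.342, 263 to 309 and 182 to 252 CPM), and of 9 sinusoidal endothelial genes 1 fell, Lyve1 (median -0.17, 133 to 205 and 126 to 178 CPM). Neutrophil genes had 0 of 2 tested past the threshold with edgeR, also 0 at an unadjusted p under 0.05 and by DESeq2 and limma voom (summed level 2.06 to 3.84 and 1.04 to 18.9 CPM). Of 18 hepatocyte genes 4 rose, at a median of 0.211.

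To find genes that varied like each member between livers of 1 group, log2 CPM values were centred within groups and correlated over the 16 libraries, with the 3 highest of 11206 candidate genes named. All values share these libraries and their depth and are a description only. Lgals3 varied most like Coro1a (Pearson's r 0.917), an actin regulator of leukocytes, followed by Slc40a1, an iron exporter in the Kupffer cell list, and Nfam1. For Cd9 these were Wipf1 (0.901), Ptpn1 and Ssbp4, for Gpnmb Rbms1 (0.893), Arhgef2 and Fgfr1, and for Trem2 Nos3 (0.862), Lgals4 and Dkk3. Cd63 was most like Fkbp10 (0.804), Flna and C1qtnf1, Capg like Agtrap (0.862), Il1rn and Dctn2, and Lpl like Il10rb (0.866), Sh3bgrl2 and Hmox1. Of the members that did not pass, Atp6v0d2 varied like Syne3 (0.919) and the peroxisomal acyl-CoA thioesterase genes Acot3 (0.907) and Acot4 (0.895). Fabp5 varied like Acacb (0.896), an acetyl-CoA carboxylase gene, Sema4a and H2-T24, and Spp1 like Ssr4 (0.885), Sgpp1 and Pcsk7. None of these 30 nearest genes was itself a member. Candidates needed a mean of at least 1 CPM, so Trem2 could not be among them.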

How the data were processed

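Poly-A RNA of 16 livers was sequenced. The authors deposited unnormalized counts of reads for each gene symbol in each library. According to the submitters' processing notes, bcl2fastq, STAR 2.5.1a and featureCounts 1.4.6-p5 (Subread) were used on GRCm38. The annotation release, the strand setting and the handling of mates are not given here; 68.1% to 71.4% of counts from 1 to 20 were even. Of 40757 lines, 348 exact copies were removed, and 85 repeated a symbol. Coordinates and exon lengths came from GENCODE M21 by symbol, which may differ from the authors' annotation. Exon length was merged over all annotated exons of a gene.

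The test was edgeR 4.0.16 (R 4.3.3): quasi-likelihood F test, robust fit, TMM scaling, filterByExpr (minimum count 10), group as the only term, Benjamini-Hochberg over 14476 genes, threshold 0.05; SE is the log2 fold change over the root of F. Log2 CPM used a prior count of 2. In simulated counts (10 draws), 670, 670 and 660 genes were changed 1.5-fold, 2-fold and 4-fold. Of these, 78.4%, 96.3% and 99.8% were recovered, with 4.55% of calls false on average. The rates are not given by count level. Recovery at counts as low as those of Trem2 and Gpnmb is therefore not known, and may be poorer. Members were genes given by symbol; members, lists and named genes were chosen with earlier results of these data known. Named genes were all members, up to 4 genes of smallest p per list, a fixed set of partners, and the 3 nearest genes per member. Adam10, Adam17, Hcst, Plin1, Lep, Retn, Calcr, Dcstamp and Lipa were named outside this rule, after their values were seen. So were Ctsb, Ctsl, Ctsd, Apoe, Cd36, Sel1l, Lmf1, Adgre1, Csf1r, Mpeg1, Marco, Cd163, Id3, Fn1 and Hpx. Alternatives were other scalings and filters, DESeq2 1.42.0, limma 3.58.1 voom, 5 surrogate variables (sva 3.50.0), a replicate block, halved counts (for mates counted separately), and left-out libraries; list counts under them were added after seeing the data. Libraries of 1 group differed far beyond sampling noise (chi-square per gene 18.5 to 464 over 56 pairs), so each counted once; the labels do not say that each library is 1 mouse, and p-values measure the spread between these libraries.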

Additional observations from a re-analysis of the deposited data

Results flagged for a closer look

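In 4 of the 20 sets of 8 livers checked (10 members in 2 groups), 1 liver lay far from the rest by Dixon's criterion, which chance meets in about 1 of 20 sets. GFP 7 was that liver for 3 members: Gpnmb at 4.5 CPM (the next at 2.48), Lgals3 at 15 CPM (the next at 11.4) and Lpl at 62.5 CPM (the next at 37.2). GFP 7 was also the deepest library, with 53520828 counts, and held the highest GFP value of 9 of the 10 members; Spp1 was the exception. The calls of Gpnmb, Lgals3 and Lpl held without it, at -2.45, -1.88 and -1.46. The other such liver was arcA 8, with 39.1 CPM of Spp1 against 21.6 in the next arcA liver, and the log2 fold change of Spp1 was 0.07 without it. What sets these livers apart was not tested.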

How the results depend on the processing

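The 6 lower members kept direction and call in every alternative that tested them (30 for Trem2, 31 for the others); log2 fold changes ranged from -3.00 to -0.52, nearest 0 with pan-macrophage scaling. The number of lower members was 6 in each of the 16 fits without 1 library, 5 with genes kept from 1 CPM in 8 libraries (Trem2 untested) and 7 with hepatocyte scaling or without arcA 3 and 8. Genes higher (618) moved to 253 by library size alone, 55 with hepatocyte scaling, 11919 with pan-macrophage scaling, 407 with the 1 CPM filter and 369 without GFP 2, 3 and 5, and ranged from 389 (without GFP 2) to 638 without 1 library. Genes lower (951) moved to 2378 and 148 with hepatocyte and pan-macrophage scaling. Higher members (0) became 3 with pan-macrophage scaling, where the member median was -0.65, and 1 with surrogate variables. Signs turned for Cd9 with pan-macrophage scaling (0.39) and for Fabp5 with hepatocyte scaling (-0.00396), limma voom (-0.0495) and without arcA 6 (-0.0416; up to 0.348 without arcA 5). Libraries of the same replicate number were little alike (r -0.0487 to 0.159, over 0.1 in 2 of 8), which cannot exclude pairing. With the replicate block 592 genes were higher, 876 lower and 6 members lower, also 6 with pan-macrophage scaling. Of 744 recomputed list counts, 656 stayed within 1.5 times. Depth limits Trem2 and Gpnmb most, with 3 to 22 counts per arcA library.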
